A study of Bos taurus with 16 samples.

Results

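TWIST1, FOXC2 and TBX18 are 3 transcription factors of mesenchymal tissue that were measured in the prefrontal cortex (PFC) of bulls. They are 3 of the 27607 genes in the deposited files, and were chosen because the study's gene sheet lists them as differing between the breeds. The choice therefore used the Lidia against Wagyu contrast, and the values of the 3 genes in that contrast are given here as a description with no test. Lidia cattle are bred for aggressive behaviour and Wagyu cattle for meat quality and docility. RNA of the PFC was sequenced once per animal in 8 Lidia bulls and 8 Wagyu bulls, all males and not castrated. The labels call the Lidia group aggressive and the Wagyu group non-aggressive, with no agent given to either. All were 3 years old except 1 Lidia bull, Agg_8174, which was 4 years old. Lidia bulls are named by the start of their sample titles, and Wagyu bulls by breed and number. By the animal numbers, 4 Lidia bulls came from the farm La Quinta and 4 from Montealto, and all Wagyu bulls came from a single other farm. Lidia samples were taken at the bullring after the animals had been incited, and Wagyu samples at the slaughterhouse. Breed, farm, feeding, handling and place of sampling cannot be told apart in the comparison of the breeds.

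All 3 factors bind DNA and are known from the embryo. TWIST1, of the basic helix-loop-helix (bHLH) family, acts in cranial mesenchyme and neural crest and is needed for the sutures of the skull. FOXC2, of the forkhead family, acts in mesenchyme and in the growth of blood and lymph vessels. TBX18, of the T-box family, marks the epicardium, smooth muscle precursors and mural cells, the pericytes and smooth muscle cells that wrap small vessels. In the adult brain such factors are best known from cells that are not neurons, the fibroblasts of the meninges and the cells along vessels. Nothing in a bulk sample says which cells carry a transcript.

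On ARS-UCD 1.2, TWIST1 (ENSBTAG00000046922) lies on chromosome 4 from 27817880 to 27819874 on the minus strand and has 2 exons of 1468 bases together. FOXC2 (ENSBTAG00000012465) is a single exon of 1509 bases on the plus strand of chromosome 18, from 12381319 to 12382827. TBX18 (ENSBTAG00000018161) has 8 exons of 3026 bases together and runs from 64661525 to 64689941 on the plus strand of chromosome 9. The files give 1 transcript for each gene, and 0 annotated genes overlap any of them. The nearest other gene is 7387 bases from FOXC2, 34598 bases from TWIST1 and 374351 bases from TBX18.

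Levels are in FPKM, reads per kilobase of transcript scaled to the depth of the library, and were rescaled between animals by the median ratio of all genes, so that levels of different genes can be compared per length. The libraries held about 15200000 to 73300000 counted reads (rounded), and Wagyu 5 and Agg_8324 stood apart with 15200000 and 27100000 reads and rescaling factors of 2.21 and 1.78, against 0.617 to 1.13 in the other 14 animals. Agg_8165 stood apart in its rescaled marker sums, which are the summed FPKM of genes listed for a cell type. Its rescaling factor of 0.617 was the lowest of the 16 animals, so rescaling raised its sums the most. Its place among the Lidia bulls in these sums on FPKM as deposited was not examined. Its endothelial sum was 127 FPKM against 36.6 to 48.7 in the other Lidia bulls, its oligodendrocyte sum 312 against 94.0 to 139, and its inhibitory neuron sum 101 against 39.4 to 64.4. Its mural cell sum of 33.1 FPKM and its choroid plexus sum of 18.8 FPKM, from TTR alone, were also the highest of the Lidia group, as was its mitochondrial share of FPKM, 38.4%. The part of this makeup in the results that turn on Agg_8165 was not tested. The cortical label was not tested, and a single gene cannot decide it. SLC17A7, a vesicular glutamate transporter of cortical excitatory neurons, was chosen after its values were seen. It was at 117 ± 20.3 FPKM in the Lidia group and 153 ± 23.5 in the Wagyu group (SD, n = 8 each). Against this the 3 factors were rare transcripts. Their means lay between 0.0764 and 1.35 FPKM, and all 3 were above 0 in all 16 animals.

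TWIST1 was at 0.572 ± 0.299 FPKM in the Lidia group and 0.158 ± 0.0931 in the Wagyu group (SD, n = 8 each), a ratio of means of 3.62. The 4 La Quinta bulls had 0.237, 0.649, 0.788 and 0.801 FPKM. The 4 Montealto bulls had 0.210, 0.360, 0.486 and 1.05 FPKM. Among Wagyu bulls the lowest was 0.0551, the median 0.147 and the highest 0.283 FPKM. The groups overlapped: 6 of 8 Lidia bulls were above every Wagyu bull, and Agg_8312 and Agg_8171 were not. The highest Wagyu bull was Wagyu 5, the shallowest library, with 12 reads. On FPKM as deposited 4 of 8 Lidia bulls were above every Wagyu bull, and 1 Wagyu bull was above the Lidia median. All 8 Lidia bulls were above the Wagyu median.

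FOXC2 had the widest range of the 3 genes. Its mean was 1.35 ± 1.15 FPKM in the Lidia group and 0.192 ± 0.317 in the Wagyu group (SD, n = 8 each), a ratio of 7.05. In La Quinta bulls it was at 0.270, 1.65, 1.80 and 3.15 FPKM. In Montealto bulls it was at 0.0314, 0.454, 0.802 and 2.66 FPKM. Wagyu bulls ran from 0.0107 through a median of 0.0603 to 0.932 FPKM. Here 4 of 8 Lidia bulls were above every Wagyu bull and 7 of 8 were above the Wagyu median. Agg_8165 was the exception, with a FOXC2 level inside the lower part of the Wagyu range. In the Wagyu group the mean rested on 2 animals, Wagyu 4 at 0.932 and Wagyu 3 at 0.338 FPKM, while the other 6 lay at 0.0686 FPKM or below. Without Wagyu 4 the ratio of means was 15.7, without Agg_8165 it was 8.03, and the ratio of medians over all animals was 20.4.

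TBX18 was at 0.396 ± 0.300 FPKM in the Lidia group and 0.0764 ± 0.0821 in the Wagyu group (SD, n = 8 each), a ratio of 5.18, which was 8.03 without Wagyu 3. La Quinta bulls had 0.0873, 0.494, 0.499 and 0.817 FPKM. Montealto bulls had 0.121, 0.145, 0.203 and 0.799 FPKM. The lowest Wagyu bull was at 0.00889, the median at 0.0554 and the highest, Wagyu 3, at 0.266 FPKM. Again 4 of 8 Lidia bulls were above every Wagyu bull, and all 8 were above the Wagyu median. The 4 highest Lidia bulls were the same for all 3 genes: Agg_8162, Agg_8314, Agg_8320 and Agg_8324.

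**Figure D1:**
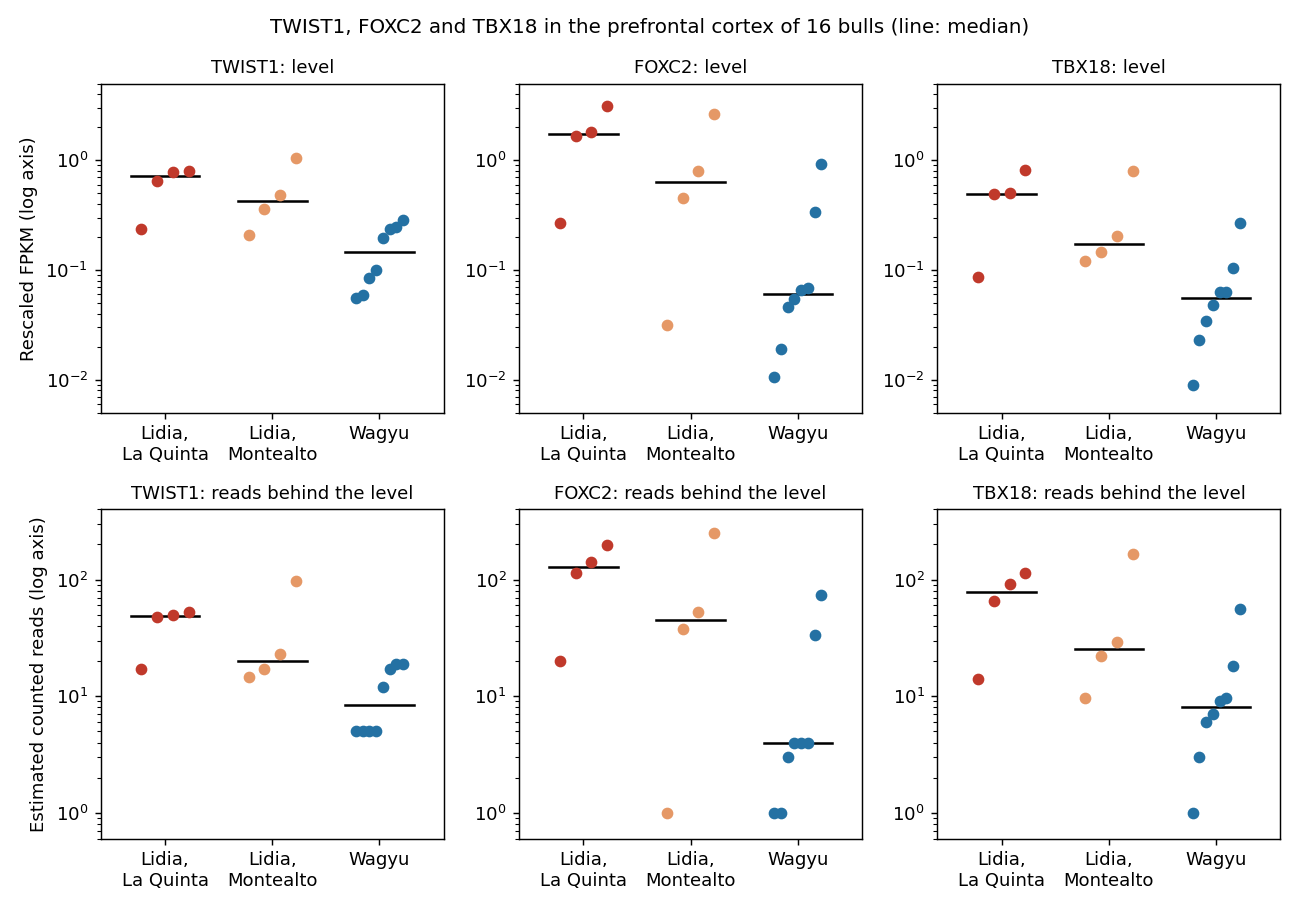
Rescaled FPKM (upper panels) and estimated counted reads (lower panels) of TWIST1, FOXC2 and TBX18, both on log axes, for 4 La Quinta, 4 Montealto and 8 Wagyu bulls; each point is 1 animal and each line the group median. In every panel the Lidia and Wagyu points overlap, and the lowest Lidia FOXC2 point, Agg_8165, rests on 1 read.

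Few reads stood behind the low values. From the error limits in the files, FOXC2 rested on 817 reads over the 8 Lidia bulls and 123 over the 8 Wagyu bulls, of which Wagyu 4 gave 73. TBX18 rested on 512 and 110 reads, and TWIST1 on 319 and 87. A single counted read was worth between 0.0107 and 0.0506 FPKM in FOXC2 as deposited, depending on the library. Agg_8165 had 1 FOXC2 read, with limits in the file of 0 to 0.0581 FPKM, whereas Agg_8162 had 251 reads, with limits of 2.51 to 3.23. The file's lower limit for FOXC2 was at 0 in 1 Lidia bull and 6 Wagyu bulls. For TBX18 it was at 0 in 2 Wagyu bulls, and for TWIST1 in 0 animals. With at least 10 reads as the mark, TWIST1 was detected in 8 Lidia and 4 Wagyu bulls, FOXC2 in 7 and 2, and TBX18 in 7 and 2. These limits cover counting error only and may be narrow, since both mates of a read pair may have been counted. A level resting on 1 to 4 reads says only that the transcript was near the lower end of what these libraries could show.

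The order of the 3 genes within an animal differed between the groups. FOXC2 was the highest of the 3 in 7 of 8 Lidia bulls, and TWIST1 was the highest in 6 of 8 Wagyu bulls. TBX18 was the highest in 0 animals of either group, and the lowest in 6 of 8 Lidia and 4 of 8 Wagyu bulls. TWIST1 was above TBX18 in 7 of 8 animals of each group. FOXC2 was above TWIST1 in 7 of 8 Lidia bulls, all but Agg_8165, and in 2 of 8 Wagyu bulls, Wagyu 3 and Wagyu 4. This change of order follows from the ratios of the contrast that chose the genes, and was not tested.

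Fitted on log2(FPKM + 0.1) with limma across 16577 genes, the Lidia minus Wagyu difference was 1.33 for TWIST1 (SE 0.30), 2.19 for FOXC2 (SE 0.63) and 1.34 for TBX18 (SE 0.36). On this scale changes of low genes are understated, and the median over all genes was -0.01. Without Agg_8165 the differences were 1.34, 2.604 and 1.45. Over all genes 827 were called, 4.99% of those tested, with the adjusted p no higher than 0.05 and a log2 change of 0.1 or more. That number went to 0 on FPKM as deposited and to 363 to 1424 with single animals left out, and whether the 3 genes are among them is not given, because they were chosen on the same contrast. FOXC2 had the largest difference of the 3 and also the largest spread. Its residual SD between animals of a group was 1.38 on the log2 scale, above that of 96.6% of all genes tested. The residual SD was 0.76 for TBX18, above 92.2% of genes, and 0.62 for TWIST1, above 88.9%, while the median gene had 0.311. In bulk tissue, fewer cells of a type and less RNA per cell cannot be told apart.

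The comparison of the Lidia farms is not the contrast that chose the genes, and it was tested. The genes were picked with earlier results of these data known, so its p-values are not fully independent of the choice. The mean in La Quinta bulls was above that in Montealto bulls for all 3 genes: 0.62 ± 0.26 and 0.53 ± 0.37 FPKM for TWIST1, 1.72 ± 1.18 and 0.988 ± 1.16 for FOXC2, and 0.474 ± 0.299 and 0.317 ± 0.323 for TBX18 (SD, n = 4 each). None of these differences exceeded the spread between animals. La Quinta minus Montealto was 0.27 on the log2 scale for TWIST1, with a 95% interval of -0.64 to 1.18 and an adjusted p of 0.905 in limma. For FOXC2 it was 1.11, with an interval of -0.76 to 2.99 and an adjusted p of 0.846. For TBX18 it was 0.51, with an interval of -0.57 to 1.60 and an adjusted p of 0.871. Two-sided exact permutation tests of 4 against 4 animals gave p = 0.6, 0.3714 and 0.4571, where the smallest p this design allows is 0.02857. Over all genes limma called 15 between the farms, 0.0905% of those tested, and 977 had an unadjusted p under 0.05, 5.89%. The intervals are wide, and differences of over 1 log2 unit in favour of La Quinta lie within each of them. With single Lidia bulls left out the farm difference ran from -0.013 (without Agg_8171) to 0.62 (without Agg_8162) for TWIST1, from 0.34 (without Agg_8165) to 1.81 (without Agg_8162) for FOXC2, and from 0.22 (without Agg_8320) to 0.98 (without Agg_8312) for TBX18, and none was called.

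Set against the Wagyu mean, both farms were higher in all 3 genes. The ratio for La Quinta was 3.92 in TWIST1, 8.95 in FOXC2 and 6.21 in TBX18, and for Montealto it was 3.33, 5.15 and 4.15. All 3 Montealto ratios fell without Agg_8162, to 2.23 in TWIST1, 2.24 in FOXC2 and 2.05 in TBX18. The Wagyu mean moved them too: without Wagyu 4 the FOXC2 ratios were 19.9 for La Quinta and 11.5 for Montealto, and without Wagyu 3 the TBX18 ratios were 9.62 and 6.43. In order of mean level La Quinta was followed by Montealto and then by Wagyu for each gene. Neighbours in that order overlapped. For each gene 3 of 4 La Quinta bulls were above every Wagyu bull. Of the 4 Montealto bulls, 3 were above every Wagyu bull for TWIST1 and 1, Agg_8162, for FOXC2 and for TBX18. Both farms were set against the same 8 Wagyu bulls.

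Covariation was examined within each breed, which leaves the difference of the breed means out. The genes and lists were chosen with earlier results of these data known, so the p-values are not independent of that choice. In all 30 relations were computed on log2 values, each over 8 animals by exact permutation of all 40320 orders, two-sided, with Benjamini-Hochberg adjustment over the 30. In the Lidia group TWIST1 and TBX18 rose and fell together, with Pearson r = 0.929 (exact p = 0.002257, adjusted 0.02257) and Spearman rho = 0.929 (exact p = 0.002232, adjusted 0.01674). Without the 2 bulls farthest from the TWIST1 median, r was 0.893. FOXC2 and TBX18 had r = 0.886 (exact p = 0.004663, adjusted 0.03497) and rho = 0.929 (exact p = 0.002232, adjusted 0.01674), and r = 0.996 without Agg_8165 and Agg_8312. TWIST1 and FOXC2 had r = 0.684 (exact p = 0.06347, adjusted 0.1904) and rho = 0.810 (exact p = 0.02178, adjusted 0.09332), and did not pass.

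That last value moved with 1 animal and with the processing. Agg_8165 was the fifth from the top among 8 Lidia bulls for TWIST1, at 0.486 FPKM, and last for FOXC2, at 0.0314 FPKM. Without it, TWIST1 and FOXC2 had r = 0.957 and an adjusted exact permutation p of 0.0129 over 7 bulls. With all 8 bulls the pair passed on FPKM as deposited, at r = 0.833 and an adjusted exact permutation p of 0.0344, and did not pass with a pseudocount of 1, at r = 0.830 and 0.0731. FOXC2 with TBX18 did not pass with a pseudocount of 0.01, at r = 0.810 and an adjusted exact permutation p of 0.0704. The Lidia values of TBX18 left a gap between 0.203 and 0.494 FPKM, with 4 bulls on each side. Sets of 4 are too few for a correlation to be given, so the Lidia relations describe all 8 bulls together. Leaving out single bulls kept r between 0.906 and 0.974 for TWIST1 with TBX18, and between 0.856 and 0.993 for FOXC2 with TBX18. With 7 bulls the adjusted p of TWIST1 with TBX18 exceeded 0.05 without Agg_8314, Agg_8324 or Agg_8162, at 0.0595, 0.0556 and 0.0786. That of FOXC2 with TBX18 exceeded it without Agg_8314, Agg_8320, Agg_8324, Agg_8162 or Agg_8174, at 0.0583 to 0.0883.

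Among Wagyu bulls the same pairs had r = 0.560 for TWIST1 with FOXC2 (rho 0.738), 0.531 for TWIST1 with TBX18 (rho 0.619) and 0.695 for FOXC2 with TBX18 (rho 0.786). None passed, with adjusted exact permutation p of 0.3373, 0.3373 and 0.2058 for r and of 0.1375, 0.2875 and 0.1047 for rho. The reads behind these levels were few, with medians of 8.45, 4.00 and 8.00 for TWIST1, FOXC2 and TBX18. Whether the correlations differed between the breeds was not tested.

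**Figure D2:**
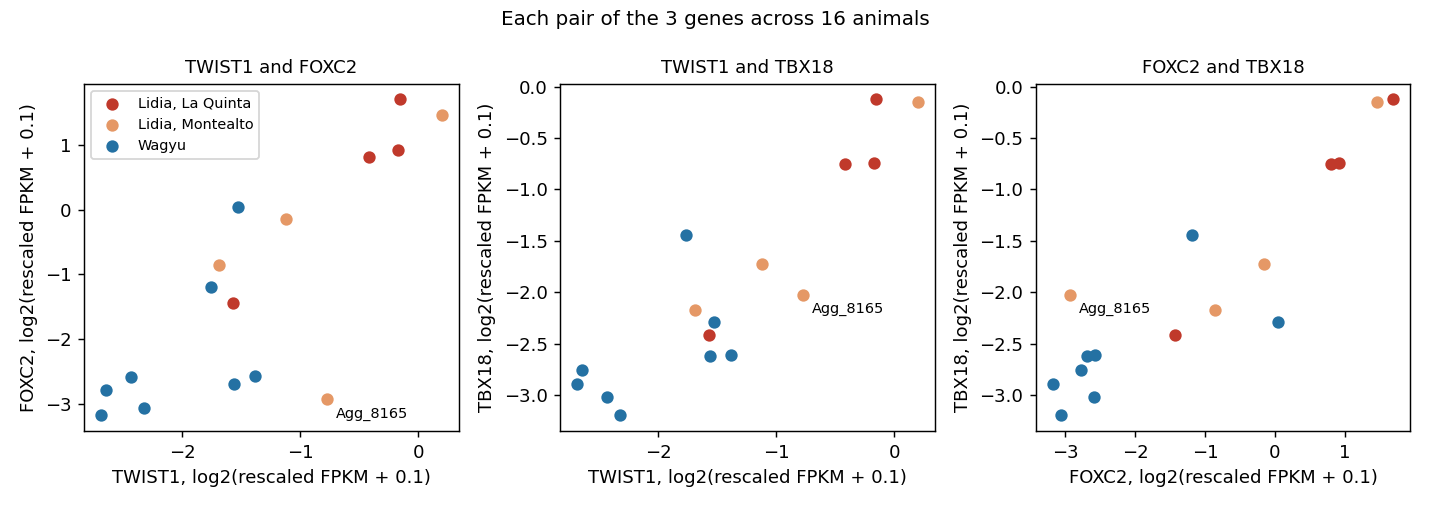
Each pair of TWIST1, FOXC2 and TBX18 across 16 bulls, both axes log2(rescaled FPKM + 0.1), with 1 point per animal coloured by farm. Agg_8165 lies away from the other Lidia bulls wherever FOXC2 is an axis, and Pearson r of TWIST1 with FOXC2 in the Lidia group is 0.684 with it and 0.957 without it.

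Markers of other cell types were read beside the 3 genes, from lists that do not hold them. Only genes with a symbol in the study's own sheet of differing genes could be read by name. Neither a list's direction between the breeds nor its share of called genes is therefore independent evidence. Of 42 listed meningeal fibroblast markers 32 had a symbol, and their summed level was 94.4 to 394 FPKM in Lidia bulls, median 198, and 51.1 to 138 in Wagyu bulls, median 67.7. CLDN11, which oligodendrocytes also express, and GJB6, which astrocytes also express, made up 23.9% of the mean sum in Lidia and 39.6% in Wagyu bulls. Of the 31 that could be tested 16 were called higher in the Lidia group and 0 lower, where 3.33% of all genes were called higher and 1.66% lower, and NNAT was listed at 0 in every animal. Of 17 mural cell markers 4 had a symbol, PDGFRB, NOTCH3, CSPG4 and MYL9, with 2 called higher and 0 lower. They summed to 11.3 to 33.1 FPKM in Lidia and 5.99 to 26.6 in Wagyu bulls. MYL9 made up most of this sum, with a mean over all animals of 11.1 FPKM. The mean was 1.99 FPKM for PDGFRB, 1.89 for NOTCH3 and 0.463 for CSPG4. CSPG4 alone of the 4 was lower in the Lidia group, at 0.362 FPKM against 0.564 in the Wagyu group. Its log2 difference was -0.57, and it was not called.

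In the Lidia group TWIST1 and TBX18 moved with the summed meningeal fibroblast markers. The sum left a gap between 154 and 242 FPKM, with the same 4 bulls on each side as for TBX18. Leaving out the 2 bulls farthest from its median does not remove this gap, and the values describe all 8 bulls together. All 32 markers came from the part of the sheet that lists genes higher in the Lidia group. Genes chosen in this way may share the Lidia bulls with high values. The correlations with this sum, and their p-values, are therefore not independent of that choice. How much of each r the choice accounts for was not tested. TWIST1 had r = 0.980 (exact p = 7.44e-05, adjusted 0.002232) and rho = 0.976 (exact p = 0.0003968, adjusted 0.0119), and TBX18 had r = 0.965 (exact p = 0.001265, adjusted 0.01897) and rho = 0.952 (exact p = 0.001141, adjusted 0.01674). Without the bulls farthest from the median of the marker sum, Agg_8312 and Agg_8162, r was 0.963 and 0.943. Both relations passed with any single Lidia bull left out. FOXC2 had r = 0.771 (exact p = 0.02656, adjusted 0.09961) and rho = 0.833 (exact p = 0.01538, adjusted 0.07688), and did not pass. Without Agg_8165 it had r = 0.964, with an adjusted exact permutation p of 0.00744. The marker sum of Agg_8165 was the fifth highest of the Lidia group, at 154 FPKM.

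Among Wagyu bulls 0 of the 3 genes passed with the sum of all 32 meningeal markers, at r = 0.468 for TWIST1, 0.871 for FOXC2 and 0.701 for TBX18 (adjusted exact permutation p = 0.4193, 0.07862 and 0.157) and rho = 0.50, 0.714 and 0.405 (adjusted p = 0.3815, 0.1571 and 0.5447). Without Wagyu 3 and Wagyu 4, r was 0.150, 0.189 and -0.620. Without Wagyu 1, FOXC2 passed at r = 0.922 (adjusted exact permutation p = 0.0417) and TBX18 had r = 0.796 (adjusted 0.105). On FPKM as deposited FOXC2 passed at r = 0.853 and TBX18 at 0.890 (adjusted exact permutation p = 0.0337 and 0.00409). TBX18 and the mural cell sum in Wagyu bulls had r = 0.885 (exact p = 0.007937, adjusted 0.04762) but rho = 0.595 (exact p = 0.1323, adjusted 0.3053). Without Wagyu 3 and Wagyu 4 that r was 0.154, so the relation rests on those animals. In the Lidia group the mural sum had r = 0.597 with TWIST1, -0.148 with FOXC2 and 0.303 with TBX18 (adjusted exact permutation p = 0.2971, 0.8183 and 0.6727). Without Agg_8165 these were 0.873, 0.738 and 0.799, and TWIST1 passed (adjusted exact permutation p = 0.0289, 0.130 and 0.0736). On FPKM as deposited TWIST1 passed with all 8 bulls, at r = 0.820 (adjusted exact permutation p = 0.0344). None of the 12 relations with counted reads or with the mitochondrial share passed, and their r lay between -0.579 and 0.499. The part of the marker levels in the difference between the breeds was not tested.

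The make-up of the meningeal sum changed some of these calls. Without CLDN11 and GJB6, a choice made after seeing the data, FOXC2 passed in the Lidia group with Agg_8165 kept, at r = 0.883 (adjusted exact permutation p = 0.02542) and rho = 0.905 (adjusted 0.02282). TWIST1 and TBX18 passed there as well, at r = 0.938 and 0.986 (adjusted exact permutation p = 0.01687 and 0.005208). In Wagyu bulls FOXC2 then passed at r = 0.929 (adjusted exact permutation p = 0.01687) and rho = 0.952 (adjusted 0.01141), and had r = 0.890 without Wagyu 3 and Wagyu 4. TBX18 passed by r, at 0.821 (adjusted exact permutation p = 0.04009), but not by rho, at 0.714 (adjusted 0.144), and had r = 0.169 without those bulls. TWIST1 did not pass in Wagyu bulls, at r = 0.516 (adjusted exact permutation p = 0.3735). With the sum of all 32 markers on FPKM as deposited, FOXC2 also passed in the Lidia group, at r = 0.892 (adjusted exact permutation p = 0.0175).

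**Figure D3:**
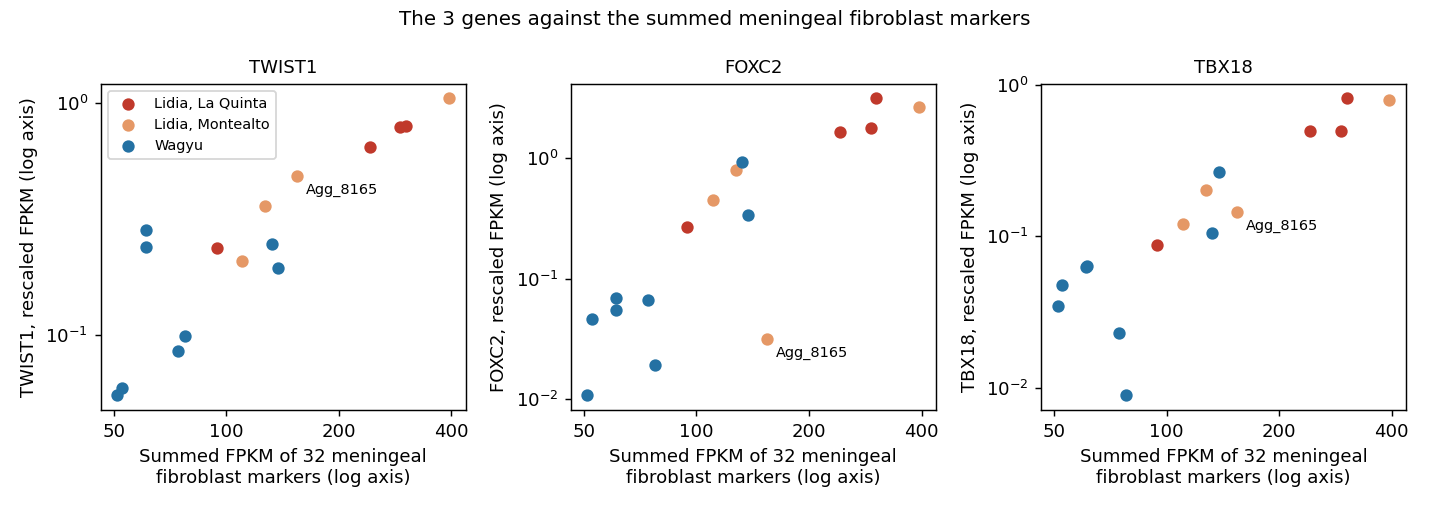
Rescaled FPKM of TWIST1, FOXC2 and TBX18 against the summed FPKM of 32 meningeal fibroblast markers, both on log axes, with 1 point per animal coloured by farm. In Lidia bulls TWIST1 and TBX18 follow the sum (r = 0.980 and 0.965), and Agg_8165 lies far below the other Lidia bulls for FOXC2 alone.

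Other lists of markers were counted the same way, from genes of the same sheet, beside 3.33% of all genes called higher and 1.66% lower. That sheet holds genes the study found to differ, so shares above these follow from the choice. Of the markers with a symbol 4 of 7 endothelial, 3 of 4 astrocyte and 2 of 4 microglia and macrophage genes were called higher in the Lidia group, and 1 of 4 inhibitory neuron genes was called lower. None of 4 excitatory neuron, 4 oligodendrocyte, 1 choroid plexus and 1 blood cell genes was called. The summed excitatory neuron markers were at 125 to 195 FPKM in Lidia and 141 to 241 in Wagyu bulls. No marker list had a gene called between the farms. TTR, the choroid plexus gene, is singled out after its values were seen. It was at 7.51 to 18.8 FPKM in the 4 Montealto bulls and at 1.05 to 1.78 FPKM in the 4 La Quinta bulls, with no overlap. Its log2 difference, La Quinta minus Montealto, was -2.92 and was not called. Whether the samples of the farms differ in tissue makeup was not tested.

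Relatives of the 3 factors, and other transcription factors known from mesenchyme, were counted from fixed lists. A symbol was held by 25 of the 61 genes listed, and all 25 came from the part of the sheet that lists genes higher in the Lidia group. Their direction was set by this choice, and a share called above that of all genes follows from it too. Of the 25, 17 were called higher and 0 lower, with a median log2 difference of 1.09, beside 3.33% of all genes called higher, 1.66% called lower and a median of -0.01. Between the farms 0 of the 25 were called.

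The forkhead list held 3 of 7 genes. FOXF2, known from pericytes of the brain, was at 2.35 ± 1.00 FPKM in Lidia and 1.42 ± 0.558 in Wagyu bulls (SD, n = 8 each), a log2 difference of 0.68, and was not called. FOXF1, a factor of mesenchyme around the gut and lung, was called at 1.00, with 0.812 ± 0.258 and 0.366 ± 0.173 FPKM. FOXD2 was not called, at 0.349 ± 0.323 and 0.0311 ± 0.0466 FPKM. FOXF2 was thus above FOXC2 in mean level in both groups, with a smaller difference between them. None of 6 T-box relatives of TBX18 had a symbol.

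In the bHLH list 5 of 12 genes had a symbol and 4 were called. The ID proteins lack a DNA-binding region and hold bHLH partners off DNA. ID4 was at 13.98 ± 2.89 FPKM in the Lidia and 7.58 ± 2.40 in the Wagyu group (SD, n = 8 each), a log2 difference of 0.90. ID3 was at 14.1 ± 4.55 and 7.01 ± 3.35 FPKM, with a difference of 1.05, and ID1 at 10.4 ± 4.75 and 5.16 ± 2.04, with 1.00. HEY2, a target of Notch signalling, differed by 0.66. TWIST2, the nearest relative of TWIST1, was at 0.505 ± 0.659 and 0.198 ± 0.147 FPKM and was not called, with a difference of 0.76 (SE 0.42). The highest TWIST2 value, 2.11 FPKM, stood in a single Lidia bull against a Lidia median of 0.272. TWIST1 and TWIST2 are alike in sequence, and a share of reads placed on the wrong one was not tested.

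Of 36 other mesenchymal factors 17 had a symbol and 12 were called. AEBP1, whose longer product is a secreted matrix protein, was at 7.08 ± 3.53 FPKM in Lidia and 1.89 ± 1.13 in Wagyu bulls (SD, n = 8 each), a log2 difference of 1.85. The zinc finger factors ZIC2, ZIC1 and ZIC4, which act in the developing brain and its coverings, differed by 1.49, 1.90 and 1.90. MSX1, a homeobox factor downstream of BMP signals, differed by 1.55, and GLI3, which answers Hedgehog signals, by 1.13. NR2F2, a nuclear receptor of veins and mesenchyme, and OSR1 were among the 8 highest of this list but were not called, at 0.69 (SE 0.24) and 2.34 (SE 0.70). OSR1 resembled FOXC2 in its spread, running from 0.158 to 4.53 FPKM in Lidia bulls and from 0.0164 to 1.32 in Wagyu bulls.

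**Figure D4:**
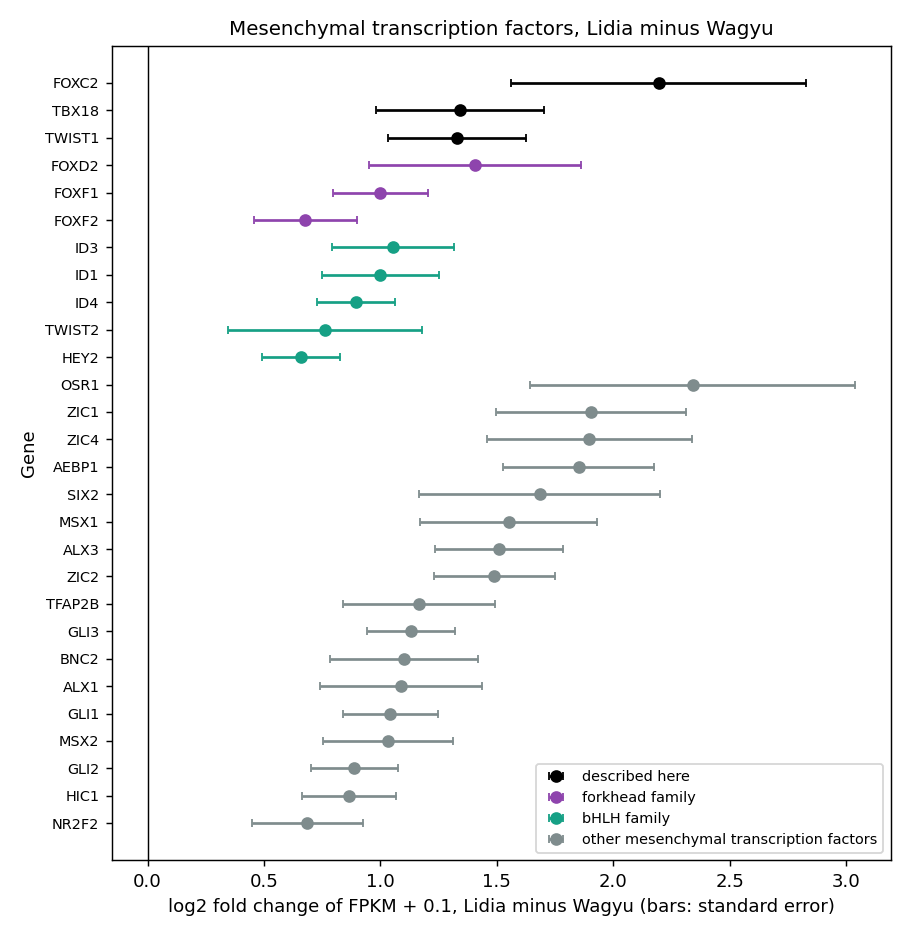
Lidia minus Wagyu difference on log2(FPKM + 0.1), with its standard error as bars, for TWIST1, FOXC2 and TBX18 and for 25 other transcription factors with a symbol, grouped by list. All lie above 0, as the choice of genes from that part of the sheet fixes, and FOXC2 and OSR1 carry the widest bars.

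The genes most like each factor were sought over all 16 animals after the breed means had been taken out. This is a description over 16 libraries that share depth and tissue makeup, and has no test. TWIST1 was most like SERPINH1, a chaperone of collagen, with r = 0.896, the highest of 16576 other genes. It was followed among named genes by RECK, a membrane inhibitor of matrix proteases (0.894), TXNIP (0.868), SELENBP1 (0.843) and KCNE4, a potassium channel subunit (0.828). SERPINH1 ran from 3.35 to 7.23 FPKM in Lidia and from 2.44 to 4.81 in Wagyu bulls, and in both breeds its range was narrower in proportion than that of TWIST1.

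FOXC2 was most like POSTN, or periostin, a matrix protein of fibroblasts that is also in the meningeal list, with r = 0.962. ITIH2, which binds hyaluronan, had r = 0.960. BMP4, a secreted growth factor, had 0.959. SIX2, a homeobox factor, had 0.955, and FN1, or fibronectin, had 0.946. Having been chosen for their likeness, these genes share their high and low animals with FOXC2. Agg_8165 was the lowest Lidia bull for POSTN (0.290 FPKM), ITIH2 (0.0334), BMP4 (0.575) and SIX2 (listed at 0), and the next to lowest for FN1 (1.76). In the Wagyu group Wagyu 4 had 7.25 FPKM of POSTN, where the others had 0.995 or less, and Wagyu 4 and Wagyu 3 held the upper places for all 5 genes.

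TBX18 was most like NR2F2, with r = 0.968. It was followed by DSE, an enzyme of dermatan sulfate synthesis (0.958), PROS1, or protein S (0.951), the complement component C7 (0.948) and BMP5 (0.940). Agg_8165 was the fourth from the lowest Lidia bull for NR2F2, at 2.23 FPKM, and for C7, at 1.16 FPKM, but the lowest for DSE, PROS1 and BMP5. Wagyu 3 was the highest Wagyu bull for all 5, as for TBX18 itself.

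The factors were less like each other than like these genes. With breed means removed, FOXC2 and TBX18 had r = 0.83, TWIST1 and TBX18 0.80, and TWIST1 and FOXC2 0.64. Of 16576 other genes, TBX18 ranked 33 among those most like TWIST1 and 125 among those most like FOXC2, whereas FOXC2 ranked 345 for TWIST1. An r of at least 0.8 was reached by 32 genes for TWIST1, 171 for FOXC2 and 248 for TBX18. TWIST1 thus had the fewest close followers, FOXC2 and TBX18 several times as many, and no difference between these numbers was tested. TWIST1 also rested on the fewest reads over all animals, 406 against 940 for FOXC2 and 622 for TBX18. The part of counting error in these numbers was not tested.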

How the data were processed

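PFC RNA was sequenced as 100-base read pairs from stranded mRNA libraries, 1 per animal. The authors trimmed reads with PRINSEQ, aligned them to ARS-UCD 1.2 with STAR 2.7.3a, sorted them with SAMtools 0.1.18 and estimated transcripts with Cufflinks 2.2.1. The deposited files give FPKM per transcript with its limits and no counts; the score column deposited beside it was not used. The FPKM of 43984 transcripts were summed to 27607 genes and rescaled by the median ratio over 15998 genes, since deposited FPKM were shifted in the shallow libraries. The 16577 genes whose mean reached 0.1 FPKM were fitted with limma 3.58.1 in R 4.3.3 (trended empirical Bayes, two-sided, Benjamini-Hochberg) on log2(FPKM + 0.1). The farm contrast used a model of La Quinta, Montealto and Wagyu. Reads were estimated from the files' limits, which lie 2 square roots of the count from the value; 1 counted read carried 101.0 bases of coverage. Correlations and farm permutations used scipy 1.17.1.

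Farms were taken by animal number from the study's supplement. Symbols came from its gene sheet by position; 1162 of 1197 entries met 1 gene. The fold changes and p-values of that sheet were not used. Named genes were the 3 factors, up to 8 genes of each transcription factor list by highest mean, and the 5 named genes most correlated with each factor. Members and lists were chosen with earlier results of these data known. Each animal is 1 sample, so p-values measure the spread between animals. On simulated data of 16577 genes, 81.5% of 200 genes changed by 1 log2 unit and 90% of 200 changed by 2 were recovered between the breeds, and 52.5% and 89.5% between the farms. These shares do not apply to the 3 factors. Their residual SDs were 0.62 for TWIST1, 1.38 for FOXC2 and 0.76 for TBX18, where the median gene had 0.311. Alternatives covered scaling, pseudocount, filter, the 2 shallow libraries, each farm alone and each animal left out.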

Additional observations from a re-analysis of the deposited data

Results flagged for a closer look

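In 20 groups of 4 or 8 animals the highest and lowest FPKM, not on the log2 scale, were compared with the rest by Dixon's ratio. An animal beyond the 95% critical value was held by 5 groups. Chance flags about 1 group in 20 only where values are normally distributed. Low FPKM are skewed, so the 5 groups cannot be read as an excess over chance. The groups are not independent, since the Lidia group holds both farms and the genes move together. FOXC2 was at 0.932 FPKM in Wagyu 4, with the next Wagyu bull at 0.338. TBX18 was at 0.266 FPKM in Wagyu 3, with the next at 0.105. In Montealto, Agg_8162 had 0.799 FPKM of TBX18, with the next bull at 0.203. The same bull had a summed meningeal fibroblast marker level of 394 FPKM, with the next at 154. The summed mural cell markers reached 26.6 FPKM in Wagyu 3, with the next Wagyu bull at 15.6. Wagyu 4 was thus high for FOXC2, and Wagyu 3 for TBX18 and the mural markers. What set these animals apart was not tested.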

How the results depend on the processing

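The Lidia minus Wagyu differences stayed above 0 in all 26 alternatives for each gene. With a pseudocount of 1 they were 0.42 for TWIST1 and 0.35 for TBX18, and with 0.01 that of TBX18 was 2.25; the pseudocount itself sets how far low values are compressed. Leaving out single animals gave 1.199 to 1.47 for TWIST1, 1.94 to 2.604 for FOXC2 and 1.18 to 1.51 for TBX18. Calls between the breeds went from 827 to 0 on FPKM as deposited (1022 at an unadjusted p under 0.05 in limma), 207 without Wagyu 5 and Agg_8324, 284 for La Quinta and 51 for Montealto against Wagyu, and 363 to 1424 with single animals left out. The highest was without Wagyu 3; 363 to 479 were left without Wagyu 5, 6, 7, 9 or 12 or Agg_8162, Agg_8314, Agg_8320 or Agg_8324. Calls between the farms went from 15 to 6 on deposited FPKM, 8 without Wagyu 5 and Agg_8324, 8 with a mean of at least 1 FPKM, 7 with the 8 Lidia bulls alone, and 6 to 13 with single bulls left out, of which Agg_8312, Agg_8314, Agg_8320 and Agg_8324 gave 6, 7, 9 and 7. The farm difference of TWIST1 reversed to -0.013 without Agg_8171 and otherwise reached 0.62. Of the 30 correlations 5 passed, against 10 on deposited FPKM, 3 with a pseudocount of 0.01, 2 without Wagyu 5 and Agg_8324, and 2 to 8 with single animals left out, an alternative chosen after seeing the data (2 without Agg_8162, Agg_8314 or Agg_8324, 3 without Agg_8320 or Agg_8174, 8 without Agg_8165). A meningeal sum without CLDN11 and GJB6, also chosen after seeing the data, gave 8. The cause was not tested. No paired analysis was possible because the groups share no replicate numbers. Few reads limit the Wagyu values of all 3 genes, with 87 for TWIST1, 123 for FOXC2 and 110 for TBX18 over 8 bulls.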
